A study of Mus musculus with 6 samples.

Results

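The glycolysis enzymes measured here are those that turn glucose into lactate in the cytosol, from the hexokinase Hk2 to the lactate dehydrogenase subunit Ldha. Members were the probes whose annotated gene symbol is 1 of the 10 listed enzyme genes. This gave 13 probes of 7 genes (Pfkl, Aldoa, Tpi1, Gapdh, Pgk1, Pgam1 and Ldha), out of 45281 probes and 19057 named genes. For the other 3 genes, Hk2, Gpi1 and Eno1, no named probe was found in the annotation used, and they were not analysed here. All arrays came from the mouse line Wehi-231, derived from a B cell lymphoma of a (BALB/c x NZB)F1 animal and grown in DMEM with fetal bovine serum. In 1 group of 3 arrays the cells carried the hairpin labelled shTFII-I, named for the transcription factor TFII-I, the product of Gtf2i, and in the comparison group of 3 arrays the hairpin labelled shCT. Hairpin sequences, the time of knockdown and whether the cells were 1 clone or a pool are not given in the sources at hand. Nothing in the labels makes the replicates separate cultures, and the spread behind each p-value may therefore be technical.

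Glycolysis splits glucose into a pair of 3-carbon sugars and oxidises them to pyruvate, with a net gain of ATP and of NADH. Lactate dehydrogenase then reduces pyruvate to lactate, which returns the NADH to NAD+ and lets the pathway run on. Dividing lymphocytes and lymphoma cells are known for a high flux to lactate even where oxygen is present. Many genes of the pathway are known targets of the transcription factors HIF-1 and MYC. Both bind short sites, often around the letters ACGTG, and the E-box CACGTG is also a known binding site of TFII-I.

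No glycolysis enzyme changed past the test between shTFII-I and shCT cells. Of the 11 probes bright enough to be tested, 8 had a higher mean in shTFII-I cells and 3 a lower one, where 50.2% of all 12109 probes tested had a higher mean. The median log2 difference, shTFII-I minus shCT, was 0.14 over the 11 probes and 0.0008 over all probes tested. It was 0.05 without the first shTFII-I array, 0.22 without the third, 0.07 without the first shCT array, 0.08 without the third and 0.07 with array weights. Of the 11 probes 6 were higher without the first or the second shTFII-I array. In limma 0 of the 11 probes passed an adjusted p of 0.05, and 0% of all probes passed. With limma's prior following intensity and made robust 0 of the 11 passed, against 0.116% of all, and with normexp background correction 0 of the 11, against 0.0743% of all. At an unadjusted p under 0.05 there were 0 of the 11, against 6.51% of all probes tested. In 0 of the 11 did the groups stand apart with no overlap, against 11.4% of all probes tested. The smallest unadjusted p among the 11 was 0.121, for a Tpi1 probe, and its adjusted p in limma was 0.835.

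Intensities are log2 values of the authors' table, and a probe was tested where at least 3 arrays exceeded 6.61, the level that 1% of the estimated background exceeds. Of the 13 probes 9 exceeded it on all 6 arrays. Gtf2i could not be checked, since its 1 named probe lay below that level on all 6 arrays, with means of 6.46 in shTFII-I and 6.48 in shCT arrays. Of the B cell markers 5 of 8 had a tested probe: Cd79b, Blnk, Ebf1, Cd22 and Pax5. Cd22 was dim, with means of 6.88 in shTFII-I and 6.89 in shCT arrays. Pax5 lay near background at 6.64 and 6.58, and Ms4a1 did not pass the filter. Of the markers of other cell types, tested probes were found for 0 of 6 for T cells and 2 of 6 for myeloid cells. For erythroid cells and for fibroblasts this was 1 of 5 each. All 4 of these non-B genes had means of 6.55 to 6.68 in either group, a range that Pax5 shares. The 2 Cd79b probes had higher means in shTFII-I than in shCT arrays, by 0.74 ± 0.46 and 0.83 ± 0.19 (log2, SE), more than any enzyme probe, the second with groups apart and an unadjusted p of 0.00355 (limma adjusted p = 0.518). Whether this had a part in the enzyme values was not tested. Arrays of 1 group correlated with each other over the tested probes at r of 0.945 to 0.971, and arrays of different groups at 0.944 to 0.980; probes are not independent replicates.

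The stretch before the start of a gene is shown for 3 enzymes, because the series deals with TFII-I at promoters: Ldha, which had the largest difference among the 7 genes, Pgk1, and Gapdh, the enzyme with a lower mean in shTFII-I cells. Each run is the 250 bases before the start, from RefSeq on build GRCm38.p6, 5′ to 3′ on the gene's strand. Capitals mark ACGTG or its reverse complement CACGT, with overlapping matches joined, so CACGTG in full capitals is an E-box. The Ldha stretch lies at chr7:46845554-46845803 on the plus strand, Pgk1 at chrX:106186850-106187099 on the plus strand and Gapdh at chr6:125165774-125166023 on the minus strand.
Ldha: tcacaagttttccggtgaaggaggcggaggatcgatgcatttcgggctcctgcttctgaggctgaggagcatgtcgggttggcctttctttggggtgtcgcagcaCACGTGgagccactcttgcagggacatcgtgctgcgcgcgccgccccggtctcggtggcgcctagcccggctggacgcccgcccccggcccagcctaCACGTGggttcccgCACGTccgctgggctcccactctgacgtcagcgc
Pgk1: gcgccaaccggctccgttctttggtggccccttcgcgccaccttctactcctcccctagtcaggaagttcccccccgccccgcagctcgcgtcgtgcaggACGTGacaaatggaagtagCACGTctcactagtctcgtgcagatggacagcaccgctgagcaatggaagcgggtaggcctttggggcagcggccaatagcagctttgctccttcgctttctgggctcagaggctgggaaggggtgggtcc
Gapdh: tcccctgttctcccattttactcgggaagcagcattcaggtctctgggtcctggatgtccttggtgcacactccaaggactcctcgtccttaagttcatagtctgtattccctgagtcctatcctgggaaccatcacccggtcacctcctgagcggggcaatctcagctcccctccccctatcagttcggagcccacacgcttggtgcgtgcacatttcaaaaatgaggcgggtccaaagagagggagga
The Ldha stretch shown has 3 such places, whose first letters lie at -145, -48 and -34 from its start, and 2 of them are whole E-boxes. Ldha has another start in RefSeq, whose stretch at chr7:46846832-46847081 has 0 such places. Pgk1 has 2, at -150 and -131, neither of them an E-box, and Gapdh has 0. Of the measured genes not shown, Tpi1 and Pfkl, with log2 differences of 0.22 and 0.20, also have 0. Aldoa and Pgam1, with 0.24 and 0.14, have such places. Whether such places go with the differences was not tested. All 10 listed genes matched the RefSeq table, with 15 stretches in all, some of which overlap where a gene has several starts. ACGTG on either strand was found in 6 of the 15 stretches (Hk2, Aldoa, Pgk1, Pgam1 and Ldha) and in 16.6% of all 32851 stretches of this length. Of the 6, 2 are overlapping Aldoa stretches that hold the same place, at -202 from 1 start and -126 from the other. CACGTG, which contains it, was found in 1 of the 15 and in 6.02% of all. Other forms of the HIF-1 and MYC sites were not searched for. A match describes letters and not a bound site, and the arrays hold no binding data.

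Of the member genes of the upper steps, Pfkl, Aldoa and Tpi1 had higher means in shTFII-I cells in their brightest probes, and none passed the test. Pfkp, a phosphofructokinase gene outside the members, had a lower mean, with a log2 difference of -0.49 ± 0.45 (SE). Pfkl encodes the liver-type subunit of phosphofructokinase, the main control point of glycolysis. Probe ILMN_1236539 of Pfkl read 10.01, 10.64 and 10.69 in shTFII-I arrays, against 10.10, 10.49 and 10.14 in shCT arrays (log2 intensity). The lowest of the 6 values was an shTFII-I array, the first, and the highest were the other two of that group, so the groups overlapped. The log2 difference was 0.20 ± 0.22 (SE), or 1.15-fold with a 95% interval of 0.809 to 1.64 (limma adjusted p = 0.966). It was 0.42 without the first shTFII-I array, 0.08 without the third and 0.003 with array weights. Its second probe exceeded background on 1 array and differed by -0.04 ± 0.07, a value that was not tested.

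Aldoa encodes aldolase A, which splits the doubly phosphorylated fructose into triose phosphates. Its probe read 10.29, 9.91 and 10.16 in shTFII-I arrays, against 9.99, 10.49 and 9.17 in shCT arrays. The shCT arrays spanned the whole range, with the highest and the lowest of all 6 values, and all shTFII-I arrays lay inside it. The means were 10.12 ± 0.20 in shTFII-I and 9.88 ± 0.67 in shCT cells (SD, n = 3 each). The log2 difference was 0.24 ± 0.32 (SE), 1.18-fold, with an interval of -0.51 to 0.998 on the log2 scale (limma adjusted p = 0.973). Without the third shCT array it was -0.11, so its sign rested on that array.

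Tpi1 encodes triosephosphate isomerase, which interconverts the triose phosphates so that both go down the pathway. It had 3 probes, all above background on 6 arrays, and they did not point the same way. ILMN_1230137 read 11.71, 11.995 and 11.78 in shTFII-I arrays, against 12.05, 11.49 and 11.29 in shCT arrays, a log2 difference of 0.22 ± 0.21 (SE). The first shCT array was the highest of the 6 and the other shCT arrays were the lowest. The difference was 0.44 without the first shCT array and 0.06 without the third. ILMN_2932359 read 9.15, 9.43 and 8.998 in shTFII-I arrays, against 8.43, 9.20 and 8.80 in shCT arrays. Here the first shCT array was the lowest of all, opposite to its place on the probe before, and the second overlapped with the shTFII-I arrays. The log2 difference was 0.38 ± 0.22 (SE), 1.30-fold with an interval of 0.914 to 1.86, and it had the smallest p of the 11 probes. ILMN_1231447 read 7.55, 7.54 and 7.24 in shTFII-I arrays, against 7.59, 7.48 and 7.67 in shCT arrays, a log2 difference of -0.14 ± 0.13 (SE). Which of the 3 probes reads Tpi1 best was not tested, and probe sequences were not used here.

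**Figure D1:**
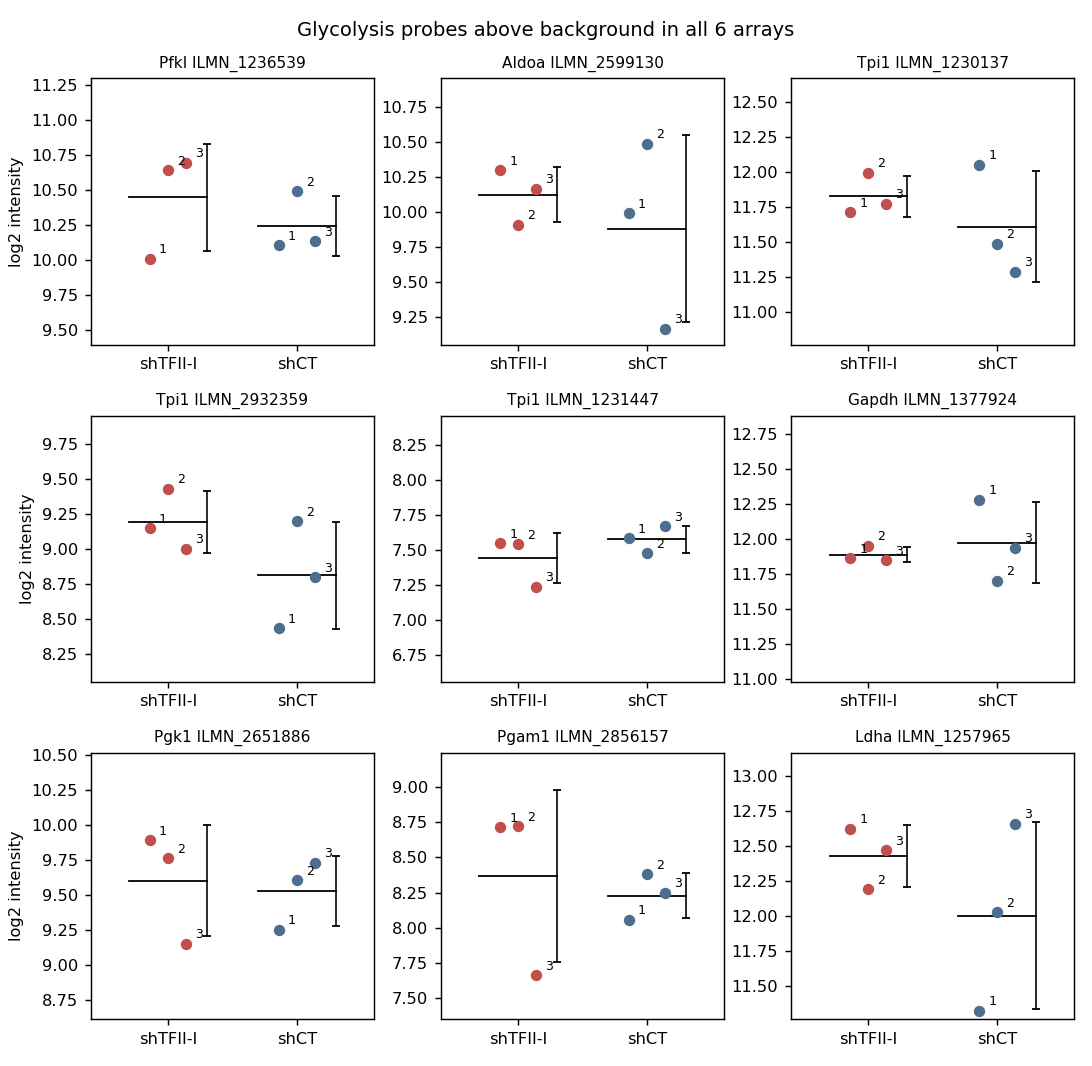
Log2 intensity (y axis, each panel spanning the same number of log2 units) of the 9 glycolysis probes that exceeded background on all 6 arrays, for shTFII-I arrays on the left and shCT arrays on the right of each panel. Points are single arrays marked with their replicate number, horizontal lines are group means and bars are SDs (n = 3 each); the groups overlap in every panel.

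Among the enzymes of the lower steps Gapdh, which oxidises the triose phosphate and makes NADH, had a lower mean in shTFII-I cells, by less than its error. Its probe read 11.86, 11.95 and 11.85 in shTFII-I arrays, against 12.28, 11.70 and 11.94 in shCT arrays. The shTFII-I arrays lay within the range of the shCT arrays, with means of 11.89 ± 0.06 and 11.97 ± 0.29 in shTFII-I and shCT cells (SD, n = 3 each). The log2 difference was -0.08 ± 0.16 (SE), 0.943-fold with an interval of 0.721 to 1.23 (limma adjusted p = 0.977). Without the first shCT array it was 0.068, so its sign rested on that array. Gapdh is also a transcript widely used as an internal reference.

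Pgk1 encodes phosphoglycerate kinase, which makes the first ATP gained in the pathway, and Pgam1 the phosphoglycerate mutase that follows it. Probe ILMN_2651886 of Pgk1 read 9.89, 9.76 and 9.15 in shTFII-I arrays, against 9.25, 9.60 and 9.73 in shCT arrays. Probe ILMN_2856157 of Pgam1 read 8.72, 8.72 and 7.66 in shTFII-I arrays, against 8.05, 8.38 and 8.25 in shCT arrays. In both genes the third shTFII-I array was the lowest of all 6 and the first the highest or next to it. The log2 differences were 0.07 ± 0.23 for Pgk1 and 0.14 ± 0.29 for Pgam1 (SE), with limma adjusted p of 0.984 and 0.978. Without the third shTFII-I array they were 0.30 and 0.49, and without the first -0.07 and -0.036. They were -0.006 and -0.039 without the second shTFII-I array, and Pgk1 was -0.06 without the first shCT array. The dimmer Pgk1 probe that was tested differed by -0.03 ± 0.11 and the dimmer Pgam1 probe by 0.09 ± 0.11 (log2, SE), both above background on 3 arrays. The third Pgk1 probe exceeded background on 0 arrays and was not tested.

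Ldha, the last step, encodes the A subunit of lactate dehydrogenase, the form that favours making lactate. Its probe read 12.62, 12.19 and 12.47 in shTFII-I arrays, against 11.33, 12.03 and 12.66 in shCT arrays. The first shCT array was the lowest of the 6 and the third shCT array the highest, so the shTFII-I arrays again lay inside the range of shCT. The means were 12.43 ± 0.22 in shTFII-I and 12.01 ± 0.67 in shCT cells (SD, n = 3 each). The log2 difference was 0.42 ± 0.32 (SE), 1.34-fold with an interval of 0.791 to 2.28 (limma adjusted p = 0.919). It was 0.08 without the first shCT array and 0.75 without the third.

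**Figure D2:**
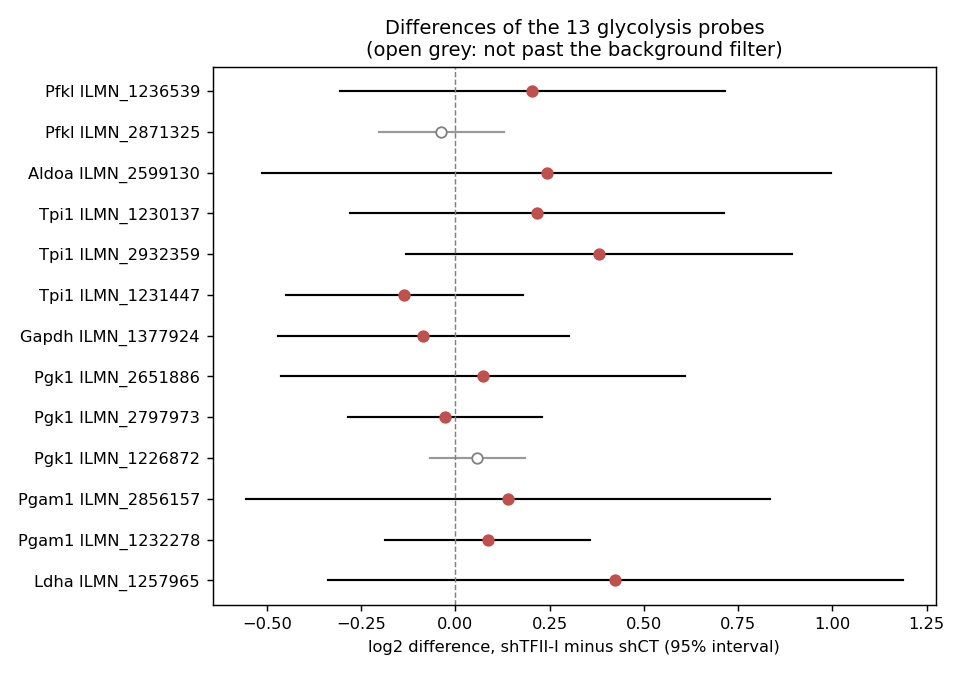
Log2 difference, shTFII-I minus shCT (x axis), of all 13 glycolysis probes in pathway order, with 95% intervals from limma as lines. Filled points are the 11 tested probes and open grey points the 2 probes that did not pass the background filter; all intervals include 0, and Ldha has the widest reach, from -0.34 to 1.19.

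The 7 enzymes shared no single order of arrays, though some pairs were alike. As a description over the same 6 arrays, Pearson's r between brightest probes was 0.92 for Pgk1 with Pgam1 and 0.59 for Tpi1 with Gapdh, and -0.65 for Ldha with Gapdh. The first shCT array was the highest of the 6 for Tpi1 (ILMN_1230137) and Gapdh and the lowest for Ldha. The third shCT array was the lowest for Aldoa and for that Tpi1 probe and the highest for Ldha. The third shTFII-I array was the highest for Pfkl and the lowest for Pgk1 and Pgam1. Over the brightest probe of each of the 7 genes, the mean deviation of an array from the 6-array mean was 0.15, 0.16 and -0.04 in shTFII-I arrays, against -0.15, 0.01 and -0.13 in shCT arrays (log2). The groups overlapped in this measure, with the third shTFII-I array below the second shCT array.

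**Figure D3:**
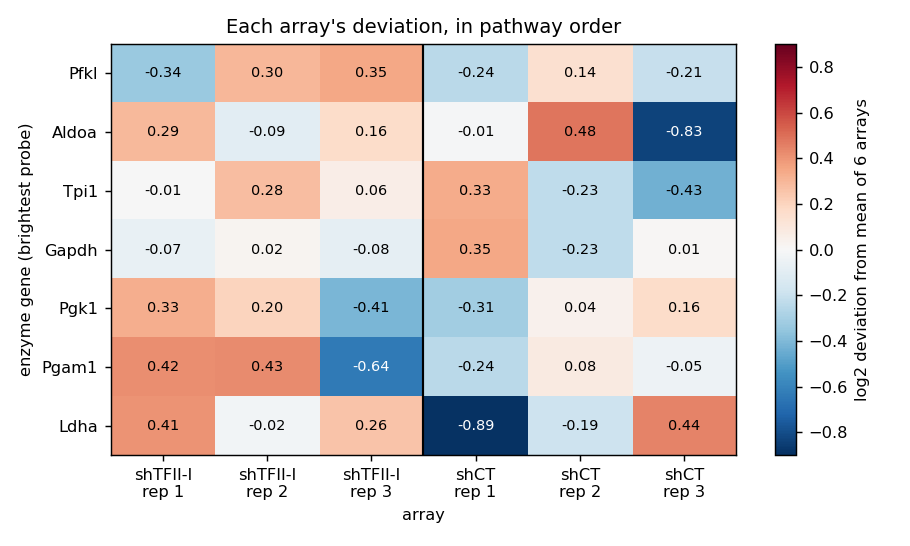
Deviation of each array from the mean of the 6 arrays (colour and printed value, log2) for the brightest probe of each enzyme gene, rows in pathway order and columns by array, shTFII-I left of the black line and shCT right of it. The deepest colours are single shCT arrays, -0.89 for Ldha in replicate 1 and -0.83 for Aldoa in replicate 3, and no column has 1 colour throughout.

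Of the 11 tested probes 7 lie among the brightest 3027 of all tested probes, where the spread between arrays was widest. The median residual SD was 0.31 (log2) over the 11 probes, against 0.36 over those 3027 and 0.20 over all probes tested. The median 95% interval of the 11 probes reached 0.51 to either side of the difference, which is the precision of a single probe before any adjustment. The adjusted test asks for more. Among all probes tested, log2 differences as far out as -1.99 and 1.88 did not pass it. Those probes have errors of their own, so this does not give the difference an enzyme probe would need. The residual SD was 0.50 for Ldha and 0.49 for Aldoa, higher than in 94.2% and 93.8% of all probes tested. The difference of Ldha was higher than that of 96.0% of all probes tested. Differences were larger among the brightest 3027, with a median size of 0.22 (log2) against 0.12 over all probes tested. That rank is therefore not one among probes of like intensity.

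**Figure D4:**
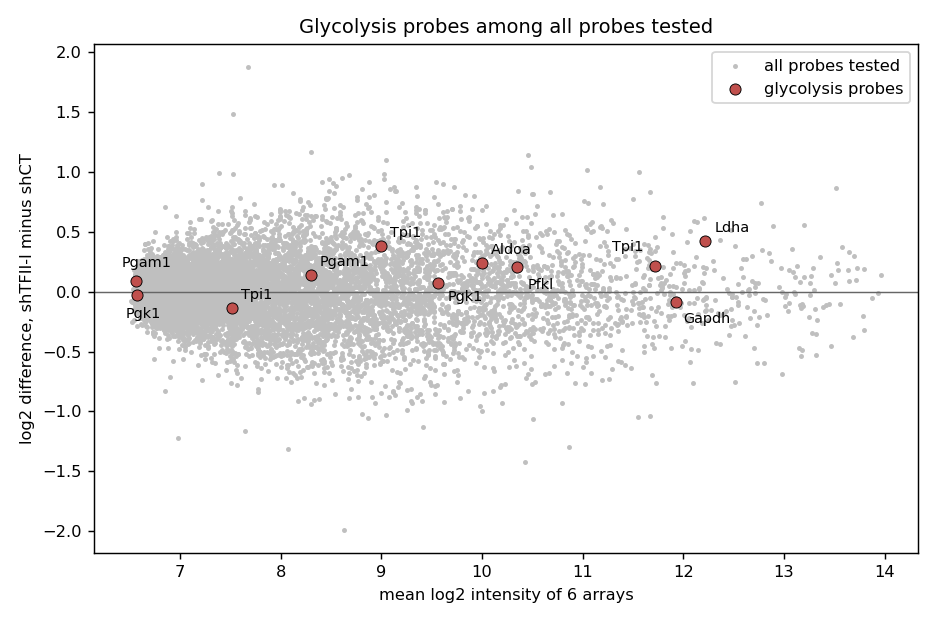
Log2 difference, shTFII-I minus shCT (y axis), against the mean log2 intensity of the 6 arrays (x axis) for all 12109 probes tested (grey) and the 11 glycolysis probes (red). The red points lie between -0.14 and 0.42, within the cloud of grey points at the same intensity.

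Around these enzymes, 39 of 90 listed genes of sugar metabolism and its control had a tested probe. In the brightest probe of each, 25 were higher and 14 lower in shTFII-I cells, and 0 passed limma's adjusted test. At an unadjusted p under 0.05 there were 2 of the 39, and in 4 (10.3%) the groups did not overlap, close to the 6.51% and 11.4% of all probes tested. The median log2 difference of the 39 genes was 0.04.

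Of the isoenzymes and pyruvate kinase 6 of 19 genes were tested, 4 higher, 2 lower and 0 past the test. Pkm, the pyruvate kinase that makes the last ATP of the pathway, had means of 10.91 ± 0.36 in shTFII-I and 10.57 ± 0.56 in shCT cells (SD, n = 3 each), a log2 difference of 0.34 ± 0.31 (SE). The platelet-type phosphofructokinase Pfkp differed by -0.49 ± 0.45 and the muscle type Pfkm by 0.16 ± 0.20, so the 3 subunit genes of this enzyme, with Pfkl at 0.20 ± 0.22, had no common sign. A second Pfkp probe differed by 0.05, and the other tested Pfkm probes by 0.04 and -0.04. The enolases Eno2, Eno3 and Eno1b differed by 0.12 ± 0.14, 0.04 ± 0.13 and -0.01 ± 0.10; whether the Eno1b probe also reads the near-identical Eno1 transcript was not tested. Hexokinase was not measurable: the probes of Hk1, Hk3 and Hkdc1 exceeded background on 0 of the 6 arrays. Among lactate dehydrogenase genes Ldha alone was tested, since Ldhb and Ldhd exceeded background on 0 arrays and Ldhc on 2. A probe below background does not show that its gene is silent.

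Glucose entry and the control of phosphofructokinase had 2 tested genes of 10. Slc2a1, the widespread glucose transporter GLUT1, differed by 0.22 ± 0.26, and Pfkfb4, which sets the level of the activator of phosphofructokinase, by 0.28 ± 0.17 (log2, SE). Of the lactate transport genes 1 of 6 was tested, Emb, a partner of lactate transporters, at -0.14 ± 0.15. The transporters Slc16a1 and Slc16a3 exceeded background on 0 arrays, and their partner Bsg on 1. No Slc16a transporter of the list had a tested probe.

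For the entry of pyruvate into mitochondria 5 of 13 genes were tested, 3 higher and 2 lower, with 0 past the test. Pdhb, the beta subunit of the first enzyme of pyruvate dehydrogenase, had means of 7.54 ± 0.06 in shTFII-I and 8.02 ± 0.34 in shCT cells (SD, n = 3 each) with no overlap of the groups. Its log2 difference of -0.48 ± 0.18 (SE) had an unadjusted p of 0.0324 and an adjusted p of 0.73 in limma, and a second tested probe differed by -0.05. The alpha subunit Pdha1 differed by 0.16 ± 0.40, the core enzyme Dlat by 0.17 ± 0.14 and the inhibiting kinase Pdk1 by -0.09 ± 0.15. The subunits of this complex thus had no common sign.

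In the pentose phosphate pathway, which draws on glucose phosphate to make NADPH and ribose, 6 of 8 genes were tested, 4 higher, 2 lower and 0 past the test. Pgls, the lactonase of the oxidative arm, differed by 0.54 ± 0.26 and Tkt, the transketolase that links the pathway back to glycolysis, by -0.43 ± 0.19 (log2, SE). Their unadjusted p were 0.0715 and 0.0528, with limma adjusted p of 0.787 and 0.774. Rpia differed by 0.30 ± 0.31 and H6pd by -0.25 ± 0.18. Of the NADH shuttles, which carry reducing equivalents from glycolysis into mitochondria, 7 of 10 were tested, 4 higher and 3 lower, with Gpd1l at -0.17 ± 0.13, Mdh1 at 0.13 ± 0.13, Slc25a11 at 0.17 ± 0.23 and Mdh2 at -0.09 ± 0.16. Of gluconeogenesis and glycogen genes 4 of 14 were tested, with Pgm1 at 0.29 ± 0.44, Pygb at 0.08 ± 0.19, G6pc3 at 0.04 ± 0.15 and Ugp2 at 0.0042 ± 0.12.

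Among known regulators of glycolysis genes 8 of 10 were tested, 4 higher, 4 lower and 0 past the test. Hif1a, the oxygen-regulated subunit of HIF-1, had means of 7.10 ± 0.09 in shTFII-I and 6.77 ± 0.12 in shCT cells (SD, n = 3 each), and the groups did not overlap. Its log2 difference was 0.32 ± 0.12 (SE), with an unadjusted p of 0.0308 and an adjusted p of 0.73 in limma. Egln3, a prolyl hydroxylase that marks HIF for decay, differed by -0.25 ± 0.12. Its means were 6.68 in shTFII-I cells, near background, and 6.93 in shCT cells. Mlxip, a glucose-sensing transcription factor, differed by 0.24 ± 0.13. Both Egln3 and Mlxip had groups apart, with adjusted p of 0.788 and 0.823 in limma. With Hif1a, groups were apart in 3 of the 8 genes, against 11.4% of all probes tested. Each rests on 1 tested probe, out of 3 named probes for Hif1a, 3 for Egln3 and 5 for Mlxip. All 3 genes were dim, with means of 6.68 to 7.13 in either group, where the background level was 6.61. Whether these differences belong together was not tested. Arnt, the constant partner of HIF-1, differed by 0.09 ± 0.25, and Myc, named outside the rule, by 0.07 ± 0.25. The lower genes Vhl, Egln1 and Egln2, also named outside the rule, differed by -0.01 each. Their means were 6.57 to 6.62 in either group, near the background level of 6.61.

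**Figure D5:**
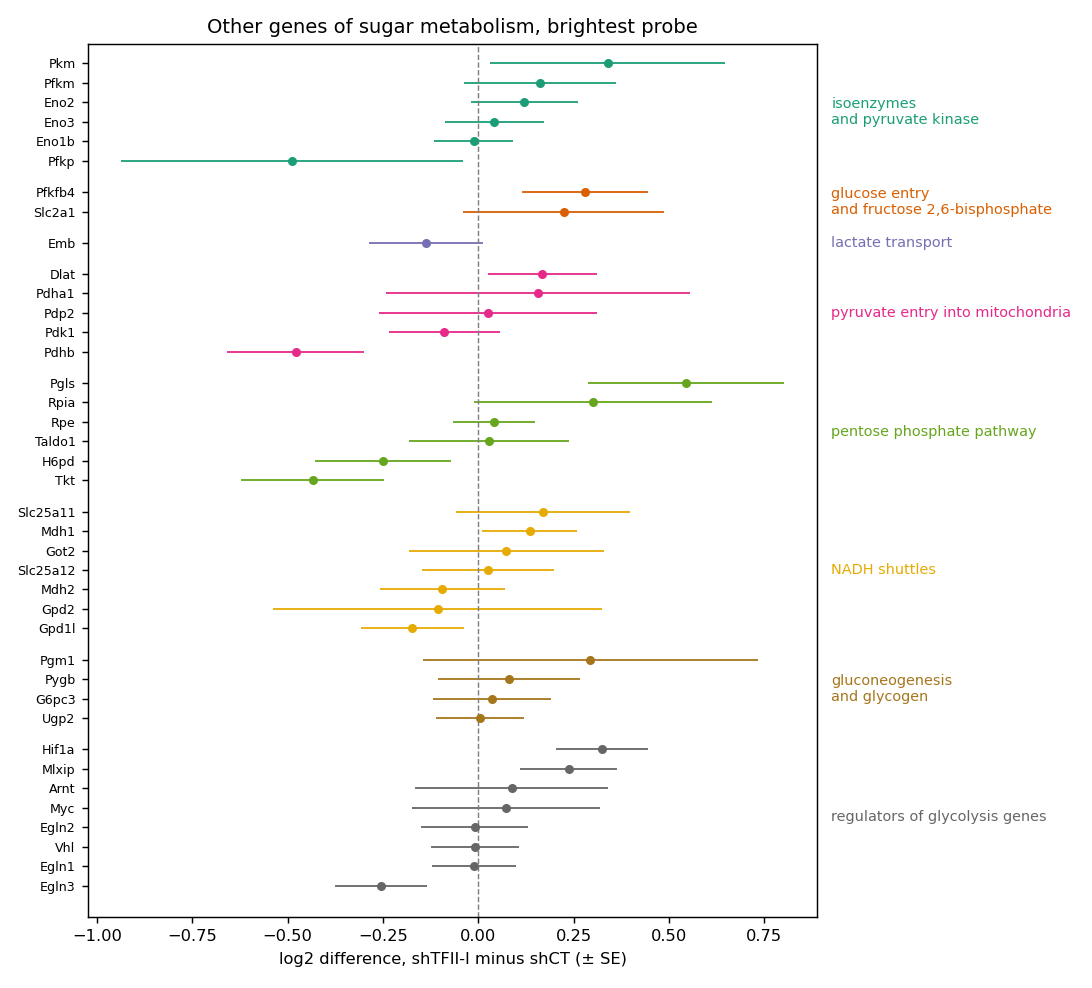
Log2 difference, shTFII-I minus shCT (x axis, points, with bars of 1 SE), of the brightest tested probe of 39 other genes of sugar metabolism and its control, grouped by list (colours). Each list with over 2 genes apart from gluconeogenesis and glycogen has members on both sides of 0, and the largest differences are 0.54 for Pgls and -0.49 for Pfkp.

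The genes most like Ldha over the 6 arrays, by Pearson r of the brightest probe, were Ascc1 (r = 0.982), H2az1 (0.963), Zfp746 (0.962), Vps72 (0.958) and Slc27a1 (0.955), out of 7196 named genes that are not members. Their Spearman rho ran from 0.71 to 0.94. Without the 2 arrays farthest from the median of Ldha r ran from 0.808 to 0.939. With 6 arrays 52 genes had r above 0.9, and these values only describe which genes share its pattern of arrays.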

How the data were processed

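Biotin-labelled cRNA from Wehi-231 cells was, per the labels' protocols, put on Illumina arrays, 3 labelled shTFII-I and 3 labelled shCT. The authors deposited log2 intensities of 45281 probes. Its sorted columns differ by at most 0.0012, so the values were quantile normalized between arrays, and nothing in them shows background subtraction, which makes differences of dim probes too small. The submitters' processing notes name limma, without a version. A second table has 12 columns of per-sample values whose headings match no sample, and it was not used.

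Gene symbols came from the platform annotation (34885 probes with 1 gene symbol, 18 with several, 10378 with none), and 34807 were updated by Entrez ID to symbols of assembly GRCm38.p6. The mode of all values, 6.45, was set as the background's centre, with its lower side mirrored upwards; 12109 probes exceeded the level of 6.61 on at least 3 arrays and were tested. Every such probe was kept, since the members are probes. limma 3.58.1 in R 4.3.3 (lmFit, eBayes with constant prior) gave differences, moderated standard errors and two-sided p adjusted by Benjamini-Hochberg over all 12109. Probes under the filter have values from the same model fitted to the whole table. An exact permutation test was not used, since 0.1 is the smallest p it allows here. The number of arrays limits the precision. The model was tested on simulated data.

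The members and the gene lists were chosen with earlier results of these data known. Named genes are all member probes, all tested isoenzyme and lactate transport genes, up to 4 genes of smallest p in each other list, and the 5 genes most like the Ldha probe. The brightest probe stands for a gene of a list. Same-numbered arrays did not deviate together (r of -0.03, 0.0029 and 0.09), so the replicate number was no term of the model.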

Additional observations from a re-analysis of the deposited data

How the results depend on the processing

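The alternatives were no filter, a filter on all 6 arrays, a looser background level, limma's prior with trend and robust, array weights, normexp with an offset of 16, the brightest probe or the mean of the probes per gene, arrays centred on the median (which moves nothing, since the arrays share 1 median), the replicate block and leaving out each array. The count of probes past an adjusted p of 0.05 was 0 in the main fit. It was 14 (0.116% of those tested) with the prior with trend and robust and 9 (0.0743%) with normexp. Of these 0 were glycolysis probes, and the count was 0 under the others. In the main fit 788 probes had an unadjusted p under 0.05. That last count was 2235 with no filter, 904 with the looser background level and 596 with the filter on all 6 arrays. It was 479 and 498 with the brightest probe and the mean of probes, as more or fewer were tested. With the prior with trend and robust it was 811, with normexp 798 and with array weights 797. With the replicate block 0 probes passed and 833 had an unadjusted p under 0.05; it changed no call. With 1 array left out 0 probes passed, from 601 to 912 had an unadjusted p under 0.05, the median of the glycolysis probes ran from 0.05 to 0.22, and 6 to 8 of 11 were higher. Over 7 genes and 16 alternatives there were 112 differences, of which 53 are the same as the reported value by the way the setting is built (filters, prior, block, centring, the brightest probe, or the mean of probes for a gene with 1 tested probe). Of the other 59, 51 kept their sign, and 0 of the 112 passed, with the smallest adjusted p in limma at 0.643. The sign turned for Gapdh with array weights (0.011). With 1 array left out Gapdh ran from -0.22 to 0.068, Aldoa from -0.11 to 0.55, Pgk1 from -0.070 to 0.30, Pgam1 from -0.039 to 0.49, Pfkl from 0.08 to 0.42, Tpi1 from 0.06 to 0.44 and Ldha from 0.08 to 0.75. With array weights Aldoa was 0.03 and Pfkl 0.003.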
